A study of Schizosaccharomyces pombe with 5 samples.

Results

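The genes described here are 10 genes of RNA interference and heterochromatin in the fission yeast Schizosaccharomyces pombe: dcr1, ago1, rdp1, chp1, tas3, stc1, clr4, swi6, clr3 and eri1. They were found by the gene symbol that the platform annotation gives to each spotted oligonucleotide, and 10 of 10 were present. All 10 had a value on every array, among 4907 genes measured on all 5 arrays. Every gene was read by 2 oligonucleotides, both of which are reported.

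Each array held cDNA in Cy5 together with wild-type cDNA in Cy3. By label, the Cy5 cDNA came from wild-type cells on 2 arrays, a hybridisation of wild type against itself, and from the tra1-1 strain on 3 arrays. All cultures grew at 30 degrees. No further genotype, mating type or marker is labelled, and the nature of the tra1-1 allele is not described. Arrays are named by their labels, as self-self-labelled arrays 1 and 2 (wild type in the plots) and tra1-1-labelled arrays 1, 2 and 3, and values are given in that order. tra1 encodes the fission yeast counterpart of human TRRAP, a very large subunit of the SAGA complex, which acetylates histones. Each value is a log ratio, centred on its array's median. It is read here as log2, Cy5 likely over Cy3, because neither base nor direction was recorded beside the numbers; every sign below would turn if Cy3 were on top. In bulk cultures, fewer cells with a transcript and less of it per cell cannot be told apart. The labels do not say that the repeats came from separate cultures, and p-values therefore measure the spread between these arrays.

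In fission yeast, RNA interference keeps the repeats around centromeres silent. Dicer (Dcr1) cuts double-stranded RNA into small RNAs, which Argonaute (Ago1) carries in the RITS complex with the chromodomain protein Chp1 and the bridging protein Tas3. The RNA-dependent RNA polymerase Rdp1 makes new double-stranded RNA, and Stc1 links RITS to the complex of Clr4, the methyltransferase that marks histone H3 in heterochromatin. The HP1 protein Swi6 binds that mark, the deacetylase Clr3 of the SHREC complex limits transcription there, and the ribonuclease Eri1 degrades small RNAs.

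The ratio of tra1 itself went against the labels. It was -1.41 and -2.04 on the self-self-labelled arrays, 0.04 and 0.02 on tra1-1-labelled arrays 1 and 2, and -2.21 on tra1-1-labelled array 3. tra1 was thus low on both self-self-labelled arrays and on 1 of the 3 tra1-1-labelled arrays. Across all genes, which are not independent replicates, Pearson's r of tra1-1-labelled array 3 was 0.72 and 0.74 with the self-self-labelled arrays and 0.47 with each of the other tra1-1-labelled arrays. The groups keep their deposited labels here, and every difference between them carries this doubt. Differences of single genes that moved by over 1.5 times or changed sign without tra1-1-labelled array 3 are given both ways.

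The comparison of the labelled groups asks whether transcripts of the silencing machinery differ between tra1-1 and wild-type cells. None of the 10 genes passed limma's test at an adjusted p under 0.05, and of all 4907 genes 0 passed (0%). The members' adjusted p ran from 0.625 to 0.999. At an unadjusted p under 0.05 there were 2 of 10 members, eri1 and dcr1, against 349 genes (7.11%) overall. Arrays of the groups did not overlap for 3 of 10 members, namely eri1, dcr1 and stc1, against 23.3% of all genes. That share is near the background. The median difference, tra1-1 minus wild type, was -0.05 over the 10 genes and -0.0025 over all genes, with 4 members above 0 and 6 below.

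**Figure D1:**
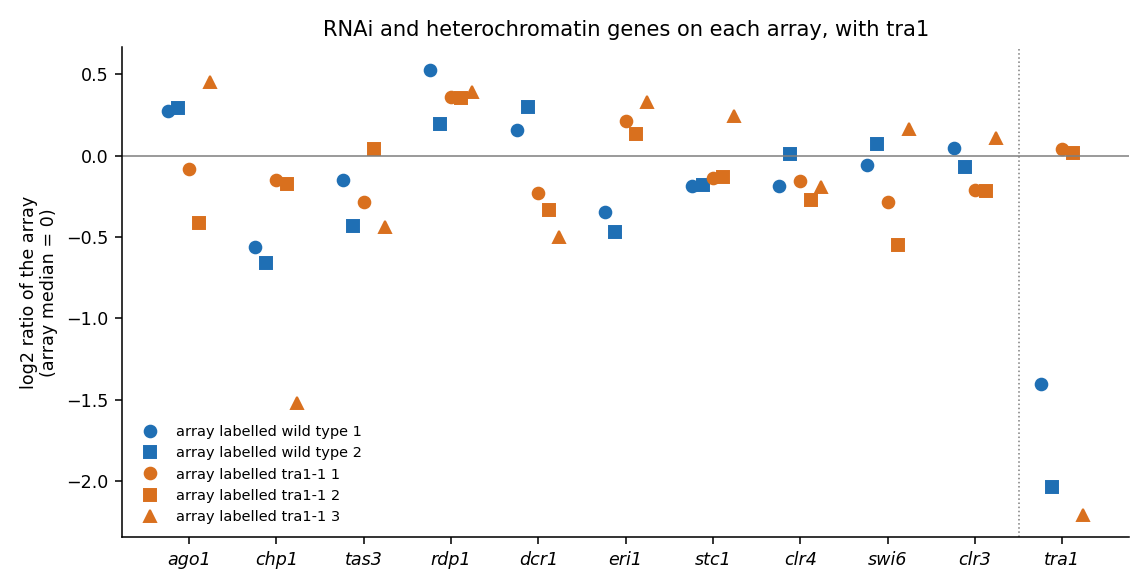
Log2 ratio of each of the 10 genes, and of tra1 for comparison, on the 5 arrays (vertical axis, array median set to 0; mean of both oligonucleotides). Blue symbols are self-self-labelled and orange symbols tra1-1-labelled arrays; eri1 and dcr1 show the groups apart in opposite directions, and chp1 and tra1 are lowest on tra1-1-labelled array 3.

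eri1 and dcr1 had the smallest unadjusted p among the members, and their differences had opposite signs. eri1 (SPOM_SPBC30B4.08), the ribonuclease that removes small RNAs, stood at -0.35 and -0.47 on the self-self-labelled arrays, and at 0.21, 0.13 and 0.33 on tra1-1-labelled arrays 1, 2 and 3. Both self-self-labelled arrays were below 0 and all 3 others above it. The group means were -0.41 ± 0.09 (SD, n = 2) and 0.22 ± 0.10 (SD, n = 3). The mean farther from 0 was thus that of the self-self-labelled arrays, where by label both dyes held the same kind of RNA. The difference of 0.63 had a standard error of 0.16 and a 95% interval of 0.28 to 0.98 (limma unadjusted p = 0.0023, adjusted p = 0.625). It ranked at place 13 of 4907 by unadjusted p.

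Both eri1 oligonucleotides had their arrays apart in the same direction, although by different amounts. The first read -0.54 and -0.78 on the self-self-labelled arrays and 0.08, 0.11 and 0.73 on the others, a difference of 0.96. The second read -0.15 and -0.16, then 0.35, 0.15 and -0.08, a difference of 0.30. Tested alone, neither passed (limma adjusted p = 0.556 and 0.825). The first oligonucleotide was highest on tra1-1-labelled array 3, where the second was lowest of that group.

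dcr1 (SPOM_SPCC188.13C), the gene of Dicer, had a difference of the opposite sign. It stood at 0.16 and 0.30 on the self-self-labelled arrays, and at -0.23, -0.33 and -0.50 on tra1-1-labelled arrays 1, 2 and 3. Both self-self-labelled arrays lay above 0 and the other 3 below it. The group means were 0.23 ± 0.10 (SD, n = 2) and -0.35 ± 0.14 (SD, n = 3). The difference was -0.58 with a standard error of 0.16 and a 95% interval of -0.94 to -0.22 (limma unadjusted p = 0.0048, adjusted p = 0.625), at place 34 of 4907 by unadjusted p. Each oligonucleotide alone kept the groups apart, with differences of -0.74 and -0.42 that did not pass (limma adjusted p = 0.556 and 0.775).

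The signs of the eri1 and dcr1 differences did not hinge on the array whose tra1 ratio stood apart from its group. Without tra1-1-labelled array 3 the differences were 0.58 for eri1 and -0.51 for dcr1, with limma adjusted p of 0.0503 and 0.0884. In that setting limma called 205 genes (4.18%) and 0 of the 10 members. Its tra1-1-labelled arrays, 1 and 2, were those whose oligonucleotides agreed least over all genes (r = 0.13 and 0.11). The setting keeps the labels of the remaining arrays, so it does not bear on whether those labels are right. Unlike tra1, both genes on tra1-1-labelled array 3 lay on the side of the other tra1-1-labelled arrays by the mean of their oligonucleotides. Both were singled out by a small p with that array included, which favours genes whose arrays side with their labels. Neither the kept signs nor the place of that array is therefore independent support. The second oligonucleotide of eri1 read -0.08 there, below 0 but above its -0.15 and -0.16 on the self-self-labelled arrays. Over the 15 alternative settings, the adjusted p of eri1 ran from 0.0273 to 0.996 and that of dcr1 from 0.0635 to 0.996.

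**Figure D2:**
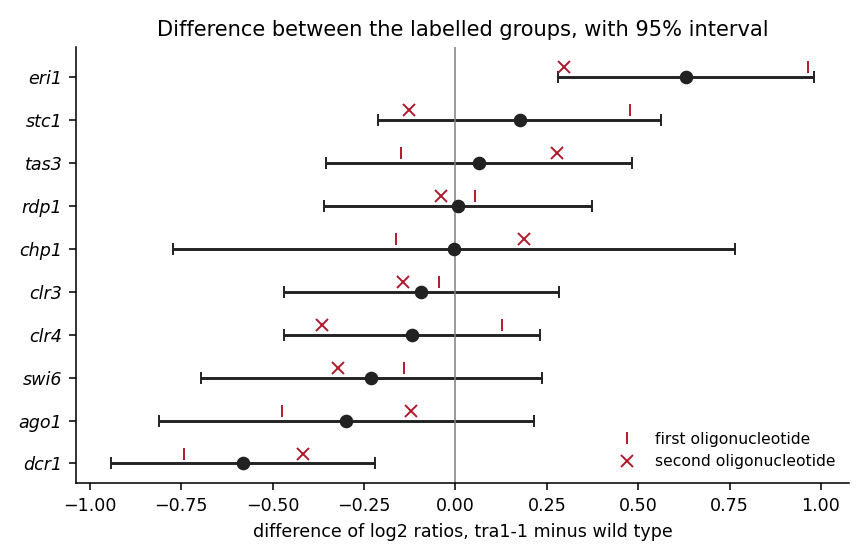
Difference of log2 ratios of tra1-1-labelled minus self-self-labelled arrays (horizontal axis) for each gene, with the 95% interval of limma as a bar; red marks give the difference of each oligonucleotide, the second of chp1 with 1 self-self-labelled array. The intervals of eri1 and dcr1 leave out 0, and those of the other 8 genes include it.

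The RITS genes ago1, chp1 and tas3 encode subunits of a single complex but had unlike values. ago1 (SPOM_SPCC736.11) stood at 0.28 and 0.30 on the self-self-labelled arrays, and at -0.08, -0.41 and 0.46 on tra1-1-labelled arrays 1, 2 and 3. It was high on the 3 arrays where tra1 was low and below 0 on the other 2. The group difference was -0.30 (95% interval -0.81 to 0.21, limma adjusted p = 0.81), and -0.53 without tra1-1-labelled array 3 (limma adjusted p = 0.0879, 0.0496 to 0.997 over the alternatives). The first oligonucleotide ranged from -0.29 to 0.80. The second ranged from -0.54 to 0.13 and did not part the arrays in this way, with -0.21 on self-self-labelled array 2 and -0.23 on tra1-1-labelled array 1.

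chp1 (SPOM_SPAC18G6.02C) was the member farthest from 0. Its ratio was -0.56 and -0.66 on the self-self-labelled arrays, -0.15 and -0.18 on tra1-1-labelled arrays 1 and 2, and -1.52 on tra1-1-labelled array 3. Counted from the lowest of 4907 genes it ranked 251.5, 174, 1296.5, 1340.5 and 18 in this order. It was therefore lowest on the arrays where tra1 was low. On tra1-1-labelled array 3 both oligonucleotides were low, at -2.06 and -0.98. The second had no value on self-self-labelled array 2, so the mean there rests on the first alone.

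With 1 array so far from the rest, the group means of chp1 were -0.61 ± 0.07 (SD, n = 2) and -0.62 ± 0.78 (SD, n = 3). The difference of -0.0042 had a 95% interval of -0.77 to 0.77 (limma adjusted p = 0.999), which leaves a change of either sign within the interval. Without tra1-1-labelled array 3 the difference was 0.45 ± 0.16 (SE, limma adjusted p = 0.133, 0.114 to 1 over the alternatives). The sign thus turned when that array was left out.

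tas3 (SPOM_SPBC83.03C) ranged from -0.44 to 0.04 and was below 0 on every array but tra1-1-labelled array 2. Its difference was 0.06 (95% interval -0.35 to 0.48, limma adjusted p = 0.965), and 0.17 without tra1-1-labelled array 3. The oligonucleotides disagreed in sign, with differences of -0.15 and 0.28, so no direction can be given. The RITS genes therefore did not all share the order of the arrays or the side of 0. chp1 and tas3 had negative means in both groups, and ago1 did not.

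rdp1 (SPOM_SPAC6F12.09), the gene of the RNA-dependent RNA polymerase, was above 0 on all 5 arrays and nearly equal between the groups. It stood at 0.53 and 0.20 on the self-self-labelled arrays, and at 0.36, 0.36 and 0.39 on the tra1-1-labelled arrays. The group means were 0.36 ± 0.24 (SD, n = 2) and 0.37 ± 0.02 (SD, n = 3), a difference of 0.0077 with a 95% interval of -0.36 to 0.37 (limma adjusted p = 0.996), and -0.0032 without tra1-1-labelled array 3. The first oligonucleotide carried this excess, at 0.29 to 0.90, while the second lay between 0.01 and 0.16. Its ratio was also positive on the self-self-labelled arrays, where by label both dyes held the same kind of RNA.

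stc1 (SPOM_SPBP8B7.28C), whose protein joins the RNA interference and methylation complexes, had groups that did not overlap, although they lay close together. It stood at -0.19 and -0.18 on the self-self-labelled arrays and at -0.14, -0.13 and 0.24 on the others. The difference was 0.18 (95% interval -0.21 to 0.56, limma adjusted p = 0.857). It was 0.05 without tra1-1-labelled array 3, the array with the highest value. Its oligonucleotides lay 0.76 apart on the median array, a larger gap than in 93.3% of genes with both measured throughout. The first was below 0 on every array (-0.73 to -0.14) and the second at or above -0.04 (up to 0.63), and their differences were 0.48 and -0.13.

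The differences of the chromatin protein genes clr4, swi6 and clr3 had intervals that included 0. clr4 (SPOM_SPBC428.08C), the histone methyltransferase gene, ranged from -0.27 to 0.01 and differed by -0.12 (95% interval -0.47 to 0.23, limma adjusted p = 0.901). Its oligonucleotides gave opposite signs, 0.13 and -0.37, and lay 1.10 apart on self-self-labelled array 2. clr3 (SPOM_SPBC800.03), the deacetylase gene, ranged from -0.21 to 0.11 and differed by -0.09 (95% interval -0.47 to 0.28, limma adjusted p = 0.932), and by -0.20 without tra1-1-labelled array 3.

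swi6 (SPOM_SPAC664.01C), the gene of the HP1 protein, stood at -0.06 and 0.07 on the self-self-labelled arrays, and at -0.29, -0.55 and 0.16 on tra1-1-labelled arrays 1, 2 and 3. It was lowest on tra1-1-labelled arrays 1 and 2, as was ago1. Its difference was -0.23 (95% interval -0.70 to 0.24, limma adjusted p = 0.838), and -0.42 without tra1-1-labelled array 3 (limma adjusted p = 0.178, 0.149 to 0.997 over the alternatives). Both oligonucleotides gave negative differences, -0.14 and -0.32, with overlapping groups, and the first was low on tra1-1-labelled array 2 (-0.70) but not array 1 (0.09). The mean of clr3 was also lowest on tra1-1-labelled arrays 1 and 2, both at -0.21. On array 2 its oligonucleotides read 0.04 and -0.47, so the first was not low there. Their group differences were -0.04 and -0.14.

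**Figure D3:**
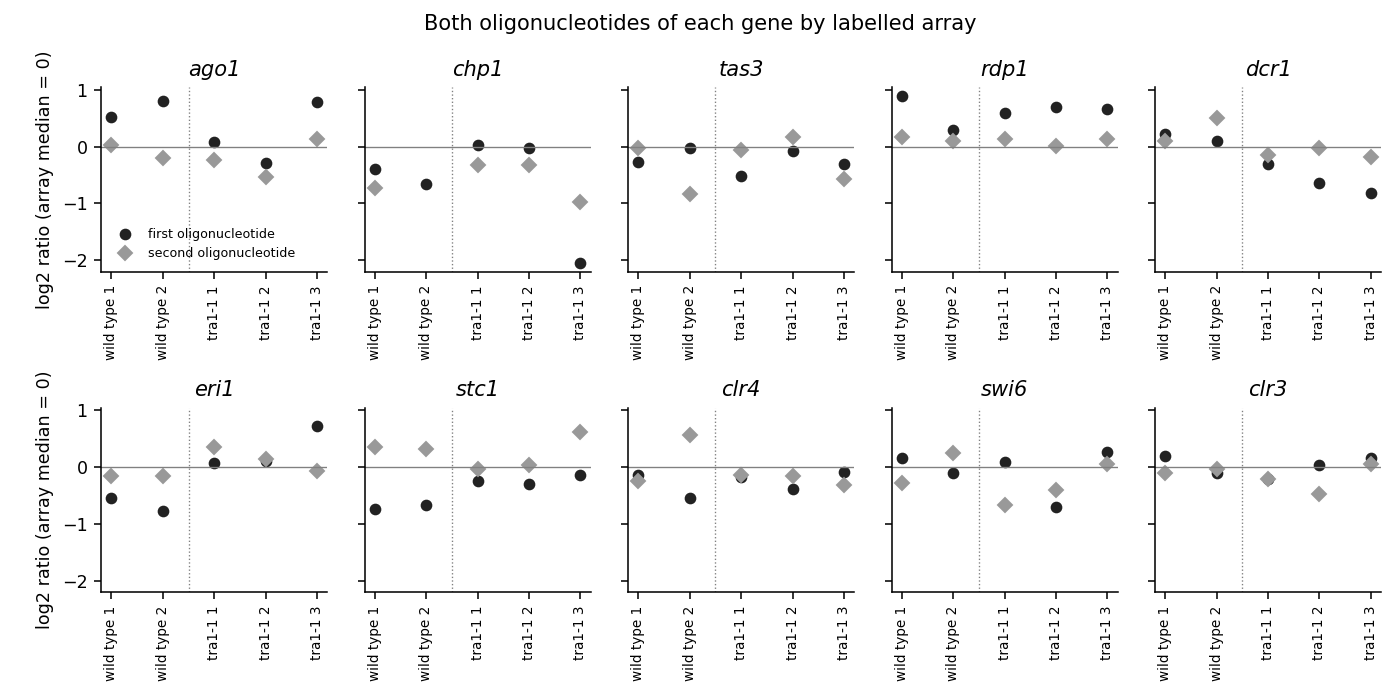
Log2 ratio (vertical axis, array median set to 0) of the first (black circles) and second (grey diamonds) oligonucleotide of each gene on the 5 labelled arrays; the dotted line parts the labelled groups. Each oligonucleotide of eri1 and dcr1 parts the groups in the same direction as its partner, although those of eri1 lie on opposite sides of 0 on tra1-1-labelled array 3. Those of stc1 lie on opposite sides of 0 on the self-self-labelled arrays, and 1 value of chp1 is missing.

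Agreement between oligonucleotides bears on each of these values. Among the 9 members with both measured on every array, 5 had differences of the same sign, against 56.6% of 4673 genes. This is the background rate. The median gap between the oligonucleotides of a gene was 0.39 for these 9 members and 0.33 for all such genes. Over all genes the oligonucleotides correlated with r = 0.42, 0.41 and 0.39 on self-self-labelled arrays 1 and 2 and tra1-1-labelled array 3, and with 0.13 and 0.11 on tra1-1-labelled arrays 1 and 2. The arrays with the higher correlation were those on which tra1 was low.

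Ratios within each labelled group were also tested against 0. On the self-self-labelled arrays 0 of 10 members passed limma's test, against 559 genes (11.4%). The smallest adjusted p belonged to eri1 (0.0568, mean -0.41), followed by rdp1 (0.0898, mean 0.36) and chp1 (0.157, mean -0.61). On the tra1-1-labelled arrays 0 of 10 passed, against 384 genes (7.83%), with rdp1 (limma adjusted p = 0.0645) and dcr1 (0.0819, mean -0.35) nearest. At an unadjusted p under 0.05 there were 3 of 10 members in each group, namely eri1, rdp1 and chp1 against 30.1% of all genes in the first, and rdp1, dcr1 and chp1 against 28.8% in the second. Both counts are near the background. The eri1 mean of the tra1-1-labelled arrays, 0.22, had an adjusted p of 0.201 in limma.

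rdp1 and chp1 were the 2 of 10 members on the same side of 0 on all arrays, against 37.5% of genes. In the plot of group means both lie on the line of equal ratios, one high and one low. Ratios at least 0.5 from 0 were reached by 2 members on self-self-labelled array 1 (chp1 and rdp1), 1 on self-self-labelled array 2 (chp1), 0, 1 (swi6) and 1 (chp1) on tra1-1-labelled arrays 1, 2 and 3. The shares of all genes were 15.2%, 13.7%, 5.64%, 8.82% and 22.2% in the same order, and with 10 genes these counts lie near the background. Median ratios of the 10 members were -0.11, -0.03, -0.15, -0.20 and 0.14 in that order, against medians of all genes within 0.02 of 0.

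**Figure D4:**
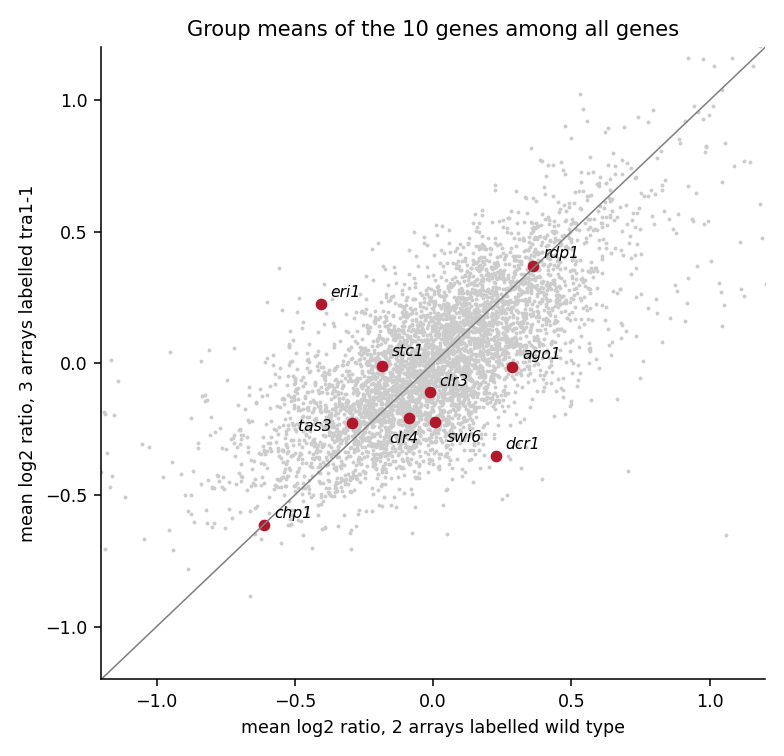
Mean log2 ratio of every gene on the 2 self-self-labelled arrays (horizontal axis) and the 3 tra1-1-labelled arrays (vertical axis), with the 10 genes in red; the line marks equal means, and genes beyond the axis range are not drawn. eri1 lies above the line and dcr1 below it, and other genes lie farther from it on both sides. rdp1 and chp1 lie on the line at 0.36 and -0.61 on the horizontal axis.

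The other genes of silencing were taken from 10 lists by function, chosen with earlier results of these data known. Of 79 listed genes beyond the members, 74 were measured, and 0 passed limma's test over all genes. Their median difference was 0.01, with 38 above 0 and 36 below. At an unadjusted p under 0.05 there were 4, against 7.11% of all genes, and groups did not overlap in 18, against 23.3%. Both shares are near the background. Without tra1-1-labelled array 3, limma called 3 of the 74 (cnp3, tlh1 and mat3-Mc), against 4.18% of all genes. That setting rests on tra1-1-labelled arrays 1 and 2, where agreement between oligonucleotides was lowest.

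In the list of the RNA interference machinery, 13 of 13 genes were measured, 7 of them members, with 7 differences above 0 and 6 below and a median of 0.01. arb2, a partner of Argonaute in the ARC complex, stood at 0.51 and 0.62 on the self-self-labelled arrays and at 0.11, -0.11 and 0.16 on the tra1-1-labelled arrays. Its groups did not overlap, as for dcr1, and the difference was -0.51 ± 0.16 (SE, limma unadjusted p = 0.0106, adjusted p = 0.625). arb1, of the same complex, was below 0 on every array (-0.75 to -0.38) and differed by 0.19, or 0.28 without tra1-1-labelled array 3. The helicase gene hrr1 and the polymerase gene cid12, whose products work with Rdp1, differed by 0.32 and -0.19, and hrr1 had groups that did not overlap. The genes ers1 and dsh1 differed by -0.06 and 0.03, which turned to 0.07 and -0.16 without tra1-1-labelled array 3, and neither they nor hrr1 and cid12 passed the test.

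The Clr4 complex had 4 of 5 genes measured, 2 differences above 0 and 2 below, and a median of -0.05. rik1, a subunit that resembles DNA damage binding proteins, differed by -0.25 with groups that did not overlap, raf2 by 0.19 and the cullin gene cul4 by 0.01, the latter pair by 0.02 and 0.05 without tra1-1-labelled array 3. The list of HP1 proteins, SHREC and sirtuins had 10 genes measured, 5 above 0 and 5 below, with a median of -0.01. The second HP1 gene chp2 differed by -0.24, and the sirtuin genes sir2 and hst4 by 0.22 and 0.17, both with groups that did not overlap. The SHREC genes clr1, clr2 and mit1 differed by 0.01, 0.24 and 0.02, and by -0.09, 0.43 and 0.13 without tra1-1-labelled array 3. None of these genes passed the test, with adjusted p of at least 0.77 in the first list and 0.808 in the second.

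Clr6 deacetylase genes had a median of -0.05 over 9 genes, 4 above 0 and 5 below, with clr6 itself at 0.20, pst1 at -0.23 and dep1 at -0.18. Antagonists and genes of euchromatin marks had a median of -0.11 over 9 genes, 4 above 0 and 5 below. Among them the demethylase family gene lsd1 differed by -0.37, lid2 by 0.32 (0.49 without tra1-1-labelled array 3) and the acetyltransferase gene mst2 by 0.28, while epe1, whose protein limits heterochromatin spread, differed by -0.16. RNA surveillance genes had a median of -0.05 over 10 of 11 genes, 4 above 0 and 6 below. The exosome nuclease gene rrp6 differed by -0.41, mmi1 by -0.21 and mtr4 by 0.22. Groups did not overlap for clr6, pst1, lsd1, mst2, set2, rrp6, mmi1 and cid14, as in 23.3% of all genes. No gene of these lists passed limma's test, with adjusted p of at least 0.704.

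Among histone chaperones and remodellers, 7 of 11 differences were above 0 and 4 below, with a median of 0.05. spt6, a histone chaperone of transcription, stood at 0.15 and 0.30 on the self-self-labelled arrays and at 0.87, 0.66 and 0.51 on the others (difference 0.45 ± 0.17, SE, limma adjusted p = 0.685). spt16, a subunit of the chaperone FACT, differed by 0.38 ± 0.16 (SE, limma adjusted p = 0.685), and its partner pob3 by 0.13 (-0.03 without tra1-1-labelled array 3). Both spt6 and spt16 had groups that did not overlap, as in 23.3% of all genes. Both had an unadjusted p under 0.05 in limma, as in 7.11% of all genes. hip3, of the HIRA chaperone, differed by -0.24, and the groups of hip3 and asf1 did not overlap either.

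In the centromere list, 5 of 9 differences were above 0 and 4 below, with a median of 0.01. cnp3, which encodes the counterpart of human CENP-C, had the largest difference among the listed genes, 1.01 ± 0.34 (SE, limma unadjusted p = 0.014, adjusted p = 0.648). It stood at -1.36 and -1.02 on the self-self-labelled arrays, and at 0.15, 0.33 and -1.04 on tra1-1-labelled arrays 1, 2 and 3. Its groups overlapped, and it was low on the 3 arrays where tra1 was low. Without tra1-1-labelled array 3 the difference was 1.43 ± 0.17 (SE, limma adjusted p = 4.18e-05, 5.52e-09 to 0.996 over the alternatives). cnp1, of the centromeric histone, was also lowest on those 3 arrays, with -0.67, -0.37, 0.34, -0.10 and -0.87 (difference 0.31), and cbh2 differed by -0.27. Their differences were 0.64 and -0.48 without that array. The telomere list had a median of -0.09 over 6 genes, 2 above 0 and 4 below. Differences of pot1, rif1 and tpz1 were -0.25, -0.16 and -0.15 (rif1 -0.07 without tra1-1-labelled array 3). Groups did not overlap for tpz1.

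Genes that heterochromatin keeps silent were represented by 3 of 6. tlh1, a telomeric helicase gene, stood at -1.85 and -2.23 on the self-self-labelled arrays, and at -0.30, -0.19 and -3.01 on the tra1-1-labelled arrays. It was low on the same 3 arrays as tra1, and its difference was 0.87 ± 0.66 (SE, limma adjusted p = 0.808). Without tra1-1-labelled array 3 it was 1.80 ± 0.17 (SE, limma adjusted p = 4.69e-06, 1.25e-11 to 0.997 over the alternatives). The mating-type gene mat3-Mc, at 0.55 and 0.52 against -0.03, -0.29 and 0.82, differed by -0.37, and by -0.69 ± 0.16 without that array (SE, limma adjusted p = 0.0183, 0.00532 to 0.997 over the alternatives). mat3-Mi differed by 0.18, and by -0.0097 without it. tlh1 and both mating-type genes have near-identical copies elsewhere, which the oligonucleotides were not checked to tell apart, so these values may mix silent and active copies.

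**Figure D5:**
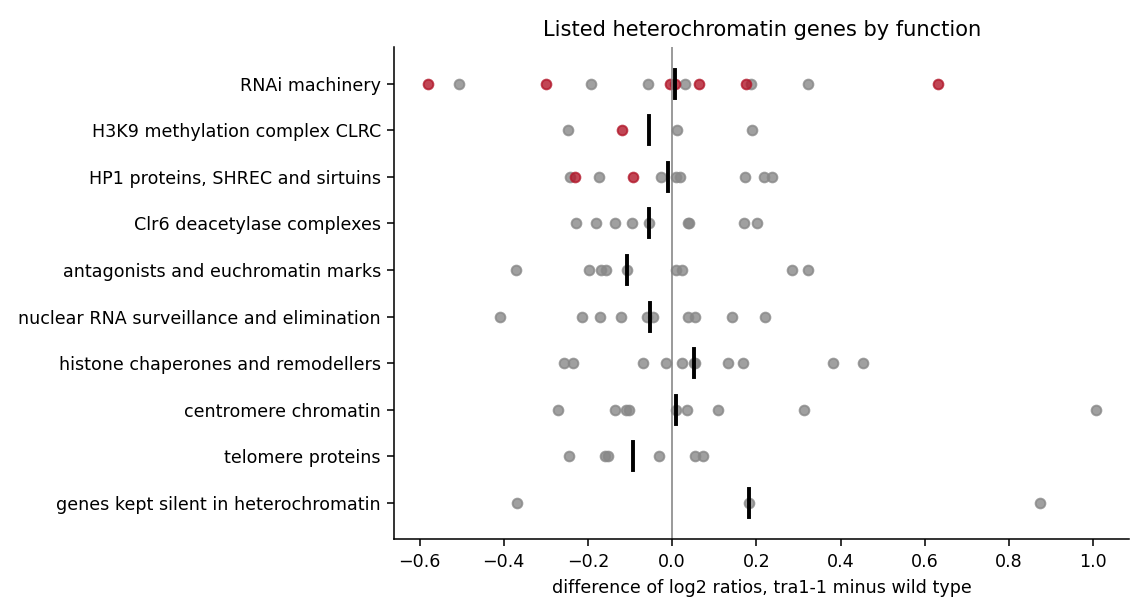
Difference of log2 ratios of tra1-1-labelled minus self-self-labelled arrays (horizontal axis) for each measured gene of the 10 lists; red points are the 10 genes described first, grey points the other listed genes, and black bars the list medians. The medians lie between -0.11 and 0.18, and the points farthest to the right are cnp3 and tlh1, followed by eri1.

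Neighbouring genes were read to see whether the differences of eri1 and dcr1 extended along the chromosome, using gene order in the assembly ASM294v3. The protein-coding neighbours of eri1 are tfb4 and mmm1. tfb4 differed by 0.03 and mmm1 by 0.34 ± 0.25 (SE, limma adjusted p = 0.8), or by -0.04 and 0.60 without tra1-1-labelled array 3, and the arrays of mmm1 overlapped, at -0.33 and -0.06 against 0.56, 0.24 and -0.37. Of the neighbours of dcr1, svf1 differed by 0.19 (0.47 without tra1-1-labelled array 3), opposite in sign to dcr1 (-0.58), and spn6 was not measured on all arrays. The neighbours of chp1, aim18 and ypt3, stood at -0.27 and 0.05 on tra1-1-labelled array 3, where chp1 was at -1.52. For ago1, mrps8 and mmi1 on either side differed by -0.36 and -0.21, with the same sign as ago1 (-0.30), and none of these passed the test.

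The genes most like eri1 and dcr1 were found by the Euclidean distance of their 5 ratios, over 4795 named genes. The nearest of so many genes lie below the median distance by selection, so these distances do not show an unusual likeness. Nearest to eri1 was SPOM_SPBC215.11C at a distance of 0.09, followed by arh1 (0.23) and SPOM_SPBC1348.06C (0.28), against a median distance of 0.95. SPOM_SPBC215.11C stood at -0.39 and -0.41 on the self-self-labelled arrays and at 0.19, 0.18 and 0.34 on the tra1-1-labelled arrays. Nearest to dcr1 were SPOM_SPAC23H3.04 (0.25), ssd1 (0.26) and SPOM_SPAC15A10.07 (0.26), against a median of 0.93. None of the 6 is a gene of the lists above. Those lists hold only 84 genes on the array, so a listed gene was unlikely among 6 of 4795.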

How the data were processed

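RNA of 5 two-colour spotted oligonucleotide arrays was analysed from a deposited table of log ratios, 1 per probe and array, taken as log2. How the authors reached these log2 values (base, channel order, scanner, background correction, normalization) is not given in the sources used here. Deposited array medians lay between -0.43 and -0.21, so each array was centred on its median. Of 9858 probes, 9632 had 1 gene symbol in the platform annotation, 44 had several and 182 had none. Both oligonucleotides of a gene were averaged, or the remaining one used, and 22 genes lacking an array were left out, leaving 4907. The difference of the labelled groups was fitted over all genes and 5 arrays in limma 3.58.1 (lmFit, then eBayes; R 4.3.3), 2-sided, with Benjamini-Hochberg adjustment at 0.05. The same fit gave the test of the wild-type mean against 0, and a fit of 3 arrays that of the tra1-1 mean. Precision is limited by how few arrays there are, and the median standard error of a difference was 0.18.

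The members and lists were chosen with earlier results of these data known. All 10 members and tra1 were named, with up to 3 genes per list by smallest unadjusted p and the 3 genes nearest in pattern to each of the 2 members with the smallest p; further list genes were named for their place in a complex, after their values were seen. Channel intensities were not analysed here. Scripts were tested on simulated data. Alternatives were other centring, normalization, oligonucleotide, missing-value, prior and weight choices, a replicate block, and leaving out each array. Figures used matplotlib 3.10.9 in Python 3.11.15.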

Additional observations from a re-analysis of the deposited data

How the results depend on the processing

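The differences of dcr1, eri1, ago1, swi6 and clr3 kept their sign in all 15 alternative settings, while those of rdp1, clr4, chp1, tas3 and stc1 turned in at least 1. For rdp1 they were -0.0378 with the values as deposited, -0.0385 with the second oligonucleotide and -0.0032 with the replicate block, and for chp1 0.10, 0.078, 0.29 and 0.45 with quantile normalization, scale normalization, array weights and the block. Single oligonucleotides turned clr4 (0.13, first), tas3 (-0.15, first) and stc1 (-0.13, second). Leaving out 1 array gave -0.16 to 0.17 for rdp1, -0.24 to 0.45 for chp1 and -0.0748 to 0.20 for tas3. chp1 had no value with the second oligonucleotide alone or with both required on every array. The cause was not tested. Genes called between the groups in limma numbered 0, and 2, 1, 95 and 329 with scale normalization, the second oligonucleotide, array weights and the replicate block, and 0 to 205 when 1 array was left out. Without tra1-1-labelled array 3 the count was 205, and 0 without any other. The block calls included eri1 (0.58, adjusted p = 0.0273) and ago1 (-0.53, adjusted p = 0.0496). Replicate 3 has a level of its own there, so the block compares replicates 1 and 2 alone. Deviations of equally numbered arrays from their group means correlated with r = 0.04 and -0.03. The deviations of the 2 self-self-labelled arrays mirror each other, so these correlations cannot decide whether equally numbered arrays share more than a number.

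For the wild-type ratios against 0, limma called 559 genes, and 1561, 856 and 1188 with the values as deposited, scale normalization and array weights. Leaving out 1 array gave 0 to 1367, with 0 where either self-self-labelled array was left out and the lone array was assumed to vary like the others, and 1367 without tra1-1-labelled array 3. For the tra1-1 ratios it called 384, and 2613, 627, 672, 662 and 887 with the values as deposited, quantile normalization, scale normalization, the first oligonucleotide and array weights. Leaving out 1 array gave 65 to 1100, with 140, 65 and 1100 without tra1-1-labelled arrays 1, 2 and 3. As deposited, the median of all genes lay at -0.30 and -0.37 in these groups.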
